A study of Mus musculus with 2 samples.

Results

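SINE element transcripts are the called segments of nascent RNA whose midpoint lies in a short interspersed nuclear element (SINE). Members were all transcripts whose detailed annotation names the repeat class SINE, and no score entered that choice. The transcripts and their midpoints were themselves called from the reads of each library. There were 3843 of 43122 called transcripts in the control library and 5288 of 51365 in the IL-4 library, which makes 9131 of 94487 in all. The assay was global run-on sequencing (GRO-seq), which labels RNA while it is being made, in bone marrow-derived macrophages (BMDMs), which are macrophages grown from marrow progenitors, from wild-type mice 8 to 12 weeks old. Marrow cells were differentiated for 6 days with L929 supernatant, a source of the growth factor M-CSF, in both groups. The control cells received no cytokine, and the other cells received interleukin-4 (IL-4), a cytokine of allergic and anti-parasite immunity that polarizes macrophages to the alternative state, at 20 ng/ml for 1 hr. Run-on reactions were made in duplicate and pooled, so that each group was 1 library (n = 1). No value below has a replicate, and no comparison between the groups carries a test.

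SINEs are short retroelements that do not code for protein and are copied with the help of LINE-encoded enzymes. The mouse families B1, B2, B4 and ID are rodent elements, and MIR is an old mammalian family. B1 comes from the RNA of the signal recognition particle and is the relative of the primate Alu, which is why the annotation calls it Alu, whereas B2 and ID come from tRNAs or tRNA-like genes. An intact SINE carries an internal RNA polymerase III promoter made of an A box and a B box, ends in an A-rich tail, and can be transcribed on its own. Most copies, however, lie in introns and are also read through by RNA polymerase II as a part of the host gene. A run-on assay labels RNA from both polymerases.

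Each called transcript came with a position, a strand, an annotation at its midpoint and a score printed to 1 decimal. The score is the only measurement. Its scaling to library size is not stated and the sequencing depth is unknown, so scores were compared as ratios centred on the median of all matched transcripts. All 10 macrophage markers looked up carried called transcripts on their strand in both libraries, with 198 transcripts in each and a summed score of 112.5 in control and 90.8 after IL-4. None of the markers of T cells, B cells, dendritic cells, fibroblasts, mast cells or erythroid cells did. Of 5 markers of neutrophils and their precursors, 2 in each library carried 3 transcripts in control and 4 after IL-4, with summed scores of 1.3 and 0.8. Fewer cells of a type and less nascent RNA per cell cannot be told apart in such libraries. The libraries also differed in the shape of all their transcripts. Control transcripts had a median length of 227 bp and a median score of 0.3, and IL-4 transcripts 312 bp and 0.2. Their part in the results below was not tested beyond the values given beside each result.

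Sequences are shown first for members in which the promoter letters of a SINE can be read. They were taken from GENCODE M21 transcripts, which cover 197 of the control members (5.13%) and 229 of the IL-4 members (4.33%) over their whole length. Each sequence is the strand that was transcribed in the run-on, 5′ to 3′, at mm10 coordinates. Capitals mark runs of 4 or more T and matches to the B box, searched as GTTCNANNC on the transcribed strand and as its complement GNNTNGAAC, which places the box on the other strand. The members printed were among those of highest score of 100 to 300 bp and free of coding sequence and untranslated regions, with and without a B box match. The first is a B1 element in N4bp2l2 (intron 5 of 5, chr5:150645440-150645701, minus strand), and the next a B4 element in the importin gene Kpna4 (intron 1 of 16, chr3:69121764-69121998, minus strand).
N4bp2l2 B1_Mus1: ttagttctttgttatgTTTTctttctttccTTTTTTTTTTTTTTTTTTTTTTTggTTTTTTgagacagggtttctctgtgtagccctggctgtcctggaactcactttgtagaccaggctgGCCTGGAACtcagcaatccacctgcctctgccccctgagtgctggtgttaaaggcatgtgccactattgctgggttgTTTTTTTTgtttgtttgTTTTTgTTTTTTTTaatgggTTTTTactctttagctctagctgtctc
Kpna4 B4A: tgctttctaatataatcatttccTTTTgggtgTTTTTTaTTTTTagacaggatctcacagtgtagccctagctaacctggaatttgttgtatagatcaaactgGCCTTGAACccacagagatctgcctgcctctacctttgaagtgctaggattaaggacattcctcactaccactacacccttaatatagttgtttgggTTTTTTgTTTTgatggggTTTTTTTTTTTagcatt
In both the box is in the complement form, so the macrophage RNA held the antisense of this promoter element, beside runs of T. The N4bp2l2 transcript scored 0.8 after IL-4, and the overlapping control transcript, also named a SINE, scored 0.8. The Kpna4 transcript scored 0.6 in control. A SINE transcript after IL-4 that overlapped 71 of its 235 bp scored 1.2. Among the members considered for printing that had no match, the highest B1 score belonged to an element in Pik3r1 (intron 2 of 15, chr13:101750257-101750525, minus strand), which encodes a regulatory subunit of PI 3-kinase. It was 4.3 after IL-4, where a control transcript in a simple repeat scored 4.9. The highest B4 score among them belonged to an element in the long non-coding RNA Neat1 (chr19:5834304-5834580, minus strand), with 1.5 in control. No IL-4 transcript overlapped that element on the same strand.
Pik3r1 B1_Mus2: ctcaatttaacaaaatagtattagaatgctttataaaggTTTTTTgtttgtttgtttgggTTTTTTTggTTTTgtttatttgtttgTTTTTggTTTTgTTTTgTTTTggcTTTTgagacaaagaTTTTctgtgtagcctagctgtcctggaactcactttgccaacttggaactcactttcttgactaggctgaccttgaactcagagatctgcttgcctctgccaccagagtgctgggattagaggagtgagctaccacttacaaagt
Neat1 RSINE1: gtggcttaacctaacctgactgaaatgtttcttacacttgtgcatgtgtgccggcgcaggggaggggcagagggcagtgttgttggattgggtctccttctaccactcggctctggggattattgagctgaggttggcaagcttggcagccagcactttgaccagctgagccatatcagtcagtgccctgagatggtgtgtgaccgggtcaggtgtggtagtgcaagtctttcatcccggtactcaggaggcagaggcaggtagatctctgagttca
The Pik3r1 sequence is rich in runs of T, and the Neat1 sequence holds none of 4 T.

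The strand of the promoter letters was then counted in windows of 200 bp around the midpoint that lay inside a GENCODE exon, 200 windows of control members and 245 of IL-4 members. A locus can give a window in each library, so the libraries are not independent here. B1 windows carried the B box mostly on the strand that was not transcribed. In control, 21 of 112 B1 windows (18.8%, 95% Wilson interval 12.6 to 27.0%) matched on the other strand and 4 (3.57%, 1.40 to 8.83%) on the transcribed strand. After IL-4 these were 41 of 127 (32.3%, 24.8 to 40.8%) and 8 (6.30%, 3.23 to 11.9%). Among B1 windows with a match on 1 strand only, the share on the other strand was 84.0% in control (n = 25, interval 65.4 to 93.6%) and 85.1% after IL-4 (n = 47, 72.3 to 92.6%). In windows of intron and intergenic transcripts without a repeat that share was 58.7% (n = 109, 49.3 to 67.5%) and 53.3% (n = 135, 44.9 to 61.5%), and a B box was found on either strand in 6.71% and 6.60% of them. Over all windows that were not SINE the share was 61.15% (n = 139, 52.85 to 68.85%) and 58.12% (n = 160, 50.38 to 65.49%), a lean to the other strand as well. B2 and B4 windows were fewer and their intervals included equal shares. For B2 the share on the other strand was 53.9% in control (n = 13, 29.1 to 76.8%) and 70.0% after IL-4 (n = 10, 39.7 to 89.2%). For B4 it was 55.6% (n = 9, 26.7 to 81.1%) and 69.2% (n = 13, 42.4 to 87.3%).

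Runs of T followed the same pattern. A run of 4 T was present on the transcribed strand in 88.4% of B1 windows in control (81.2 to 93.1%) and 88.2% after IL-4 (81.4 to 92.7%), against 52.6% and 54.1% of windows without a repeat. On the other strand the B1 shares were 44.6% and 35.4%, and those without a repeat 38.0% and 38.8%. B2 windows resembled B1, with 77.3% and 74.5% on the transcribed strand, while B4 windows had 51.3% and 59.3%. LINE windows had 72.2% and 74.6% (n = 54 and 59), so runs of T in the transcribed strand were not particular to SINEs. A run of 8 A, the mark of a SINE tail, lay on the transcribed strand in 3.57% and 3.15% of B1 windows and on the other strand in 26.8% and 26.0%. In windows without a repeat the corresponding shares were 0.985% and 1.52% on the transcribed strand and 9.05% and 8.31% on the other. Among windows with the run of A on 1 strand only, the other strand held it in 90.6% and 89.2% of B1 windows and in 91.7% and 87.2% of windows without a repeat, so that lean was no larger in B1. The polyadenylation signal AATAAA also matched B1 windows more often on the other strand, 20.5% against 3.57% in control and 24.4% against 5.51% after IL-4. Windows without a repeat (8.19% against 3.94%, and 8.95% against 4.35%) and LINE windows (20.4% against 11.1%, and 27.1% against 13.6%) leaned the same way. The median GC content was 44.5% over SINE windows in each library and 52.5% and 51.5% over windows without a repeat. Base composition alone also moves the shares of such short motifs, and its part was not tested. A match is a description of letters and not of a site in use.

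**Figure D1:**
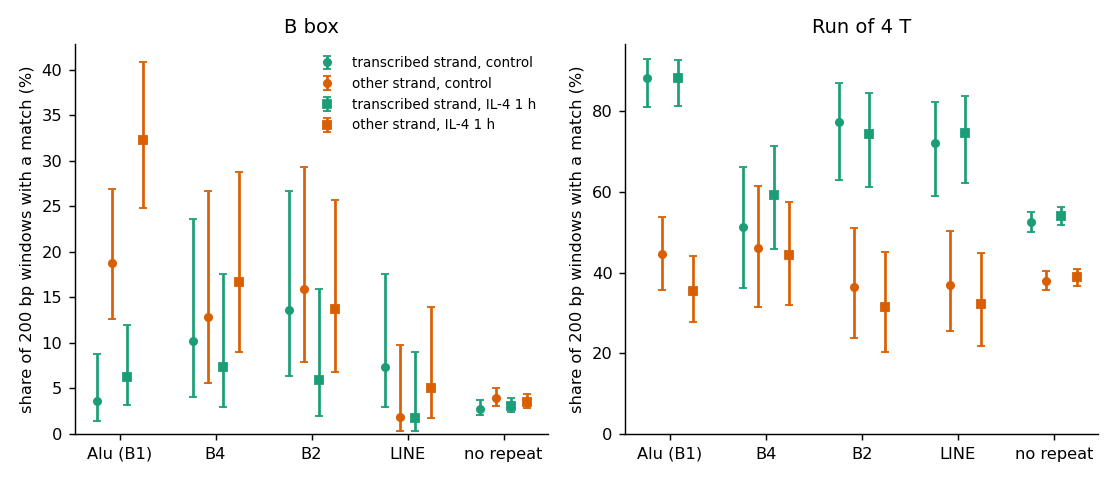
Share of 200 bp windows (percent, with 95% Wilson intervals) that hold a B box or a run of 4 T on the transcribed or the other strand, for B1 (Alu), B4, B2, LINE and repeat-free transcripts in the control (circles) and IL-4 (squares) libraries. B1 windows hold the B box at 18.8% and 32.3% on the other strand and at 3.57% and 6.30% on the transcribed strand.

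SINE transcripts took a larger share of the called transcripts after IL-4. The share was 8.91% in control (95% Wilson interval 8.65 to 9.18%) and 10.3% after IL-4 (10.0 to 10.6%), a difference of 1.38 percentage points (95% Newcombe interval 1.01 to 1.76). These intervals cover the counting of transcripts within a library only, neighbouring transcripts are not independent, and nothing in them speaks of the spread between cultures. LINE transcripts differed by 0.20 points (-0.03 to 0.43) and LTR transcripts by 0.05 points (-0.19 to 0.28). Simple repeats were lower after IL-4 by 3.80 points (11.5% against 7.66%), and transcripts without a repeat were higher by 2.41 points. In control B1 had 2147 members, B2 753, B4 750, MIR 101 and ID 89, with 2 named tRNA and 1 named Deu. After IL-4 there were 3014 B1, 1034 B4, 987 B2, 134 MIR, 117 ID, 1 tRNA and 1 Deu transcripts. Of all called transcripts, B1 was higher after IL-4 by 0.89 points (0.60 to 1.18), B4 by 0.27 (0.10 to 0.45) and B2 by 0.18 (0.00 to 0.35), while for MIR and ID the intervals included 0. The families made up similar shares of the members in both libraries. B1 made up 55.9% and 57.0% of the members (difference 1.13 points, -0.93 to 3.19), though that difference was 3.51 points with a score of at least 0.3 and turned to -0.74 points from 200 bp upward and -2.23 points by base pairs. B4 made up 19.5% and 19.6%, and B2 19.6% and 18.7% (difference -0.93 points, -2.57 to 0.70). Of the 35 named subfamilies 32 had more transcripts after IL-4, including all 20 with at least 100 members over both libraries. All called transcripts were 1.19 times as many after IL-4, and 18 of the 20 were above that ratio, while B3A (1.17 times) and B1_Mur1 were below it. The most numerous was B1_Mus1, with 409 and 592 transcripts, followed by B3 with 350 and 505. Among the 20, B1_Mus2 had a high ratio (279 and 446, 1.60 times) and B1_Mur1 a low ratio (170 and 186, 1.09 times).

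**Figure D2:**
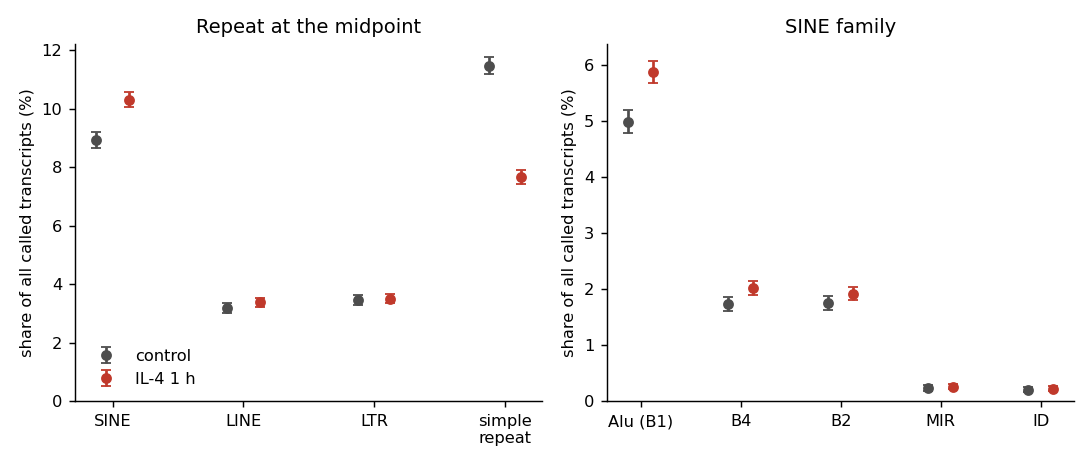
Share of all called transcripts (percent, with 95% Wilson intervals) by the repeat at the midpoint and by SINE family, in control (grey) and IL-4 (red). SINE transcripts were at 8.91% and 10.3%, LINE and LTR transcripts were at similar shares in both libraries, and simple repeats were at 11.5% and 7.66%.

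The longer transcripts of the IL-4 library were set beside this difference by counting within classes of length. Among transcripts of 100 to 199 bp, SINEs were 10.0% in control and 11.6% after IL-4 (difference 1.61 points, 0.72 to 2.53). Among those of 200 to 299 bp they were 10.5% and 12.2% (1.78 points, 1.06 to 2.50), and among those of 300 to 499 bp 7.92% and 10.2% (2.24 points, 1.51 to 2.95). From 500 bp upward they were 5.01% and 7.29% (2.28 points, 1.25 to 3.23). Under 100 bp no difference was seen beyond counting error, at 4.88% and 4.52% (-0.35 points, -1.48 to 0.91). By score, the difference was 0.53 points (-0.01 to 1.06) among transcripts scoring 0.2 or less, 1.82 points (1.24 to 2.40) from 0.3 to 0.9 and 2.71 points (0.98 to 4.50) among those scoring 1 or more.

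**Figure D3:**
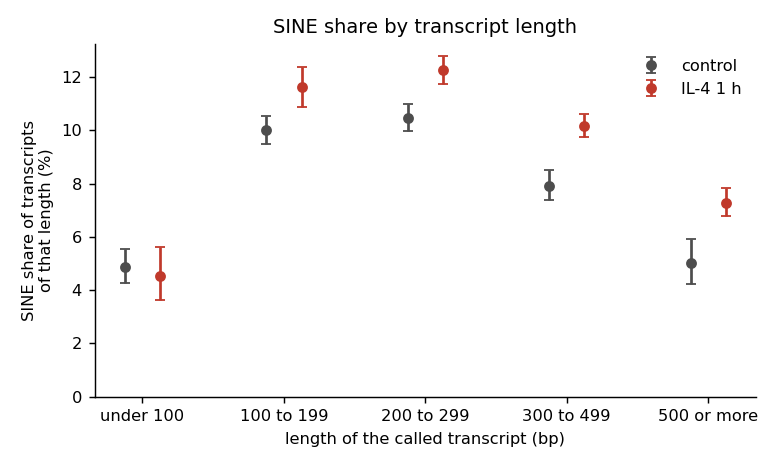
SINE share of the transcripts in each class of length (percent, with 95% Wilson intervals) in control (grey) and IL-4 (red). The IL-4 share lies above the control share in the 4 classes from 100 bp upward, and the shares overlap under 100 bp.

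Most members were faint and short. The median score was 0.2 in each library, with an upper quartile of 0.4 in control and 0.3 after IL-4, and 2 of the IL-4 members are listed at a score of 0. Scores of 1 or more were reached by 295 control members (7.68%) and 238 IL-4 members (4.50%). The highest score was 14.0 in control and 9.8 after IL-4. Of B1 members 9.50% and 5.57% reached 1, of ID members 7.87% and 5.98%, of B4 members 5.60% and 2.90%, and of B2 members 4.91% and 2.84%. Members had a median length of 223 bp in control, and 291 bp with IL-4. After IL-4 the median was longest for MIR (391.5 bp) and shortest for ID (267 bp) and B1 (272 bp) among the 5 larger families. The most frequent length was exactly 235 bp, held by 349 control members (9.08%) and 320 IL-4 members (6.05%). It was also the most frequent length over all transcripts (8.25% and 5.52%). Members of 1 kb or longer numbered 5 in control and 54 after IL-4.

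All members were annotated as intronic or intergenic, because the annotation names a repeat only there. Introns held 3500 of the 3843 control members (91.1%) and 4855 of the 5288 IL-4 members (91.8%), a difference of 0.74 points (-0.42 to 1.92). Where the GENCODE genes at the midpoint lay on 1 strand, the SINE transcript ran on the strand of the gene in 3312 of 3369 cases in control (98.3%, 97.8 to 98.7%) and in 4610 of 4661 after IL-4 (98.9%, 98.6 to 99.2%). The difference of 0.60 points had an interval of 0.08 to 1.16, and the interval included 0 with a limit on score, with a limit on length and with equal numbers of transcripts. Intronic transcripts without a repeat lay on the gene's strand in 96.8% and 97.0%, and LINE transcripts in 98.3% and 99.2%. Members sat at a median of 38.6% of the length of the host gene from its start in control and 36.9% after IL-4. The first intron held 38.7% of them in control (37.1 to 40.3%) and 38.6% after IL-4 (37.2 to 39.9%), against 31.7% and 30.1% of LINE transcripts and 42.0% and 41.9% of transcripts without a repeat.

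Intergenic members were often close to genes. Of the 343 in control, 136 (39.7%) had a GENCODE gene on their own strand over the midpoint, as did 184 of 433 (42.5%) after IL-4. A further 113 (32.9%) and 152 (35.1%) lay within 5 kb downstream of the end of a protein-coding gene on their strand. Only 64 (18.7%, 14.9 to 23.1%) and 69 (15.9%, 12.8 to 19.7%) had neither a gene on their strand nor such an end within 20 kb. Rreb1, a zinc finger transcription factor of Ras signaling, held 10 of these transcripts in control and 14 after IL-4. Non-coding genes with several in control were Gm26520 and Lncpint, with 4 each.

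Members on the strand opposite to the host gene were rare, 57 in control and 51 after IL-4. Their median length was 213 bp and 353 bp, and they included very short transcripts. Of the opposite members 5 in each library were under 60 bp (8.77% and 9.80%), against 31 (0.936%) and 4 (0.0868%) of the members on the gene's strand. Scores of 1 or more were reached by 4 opposite members in control (7.02%) and 3 after IL-4 (5.88%), against 7.88% and 4.60% on the gene's strand. Such counts are too small to compare these shares. The highest scores belonged to the same 3 loci in both libraries, named here after their values were seen. A B3 element in intron 3 of 10 of Iqcg (chr16:33047651-33047687 in control, plus strand) scored 6.1 over 37 bp in control and 5.4 over 43 bp after IL-4. An ID4_ element in intron 5 of 14 of Suz12, a Polycomb subunit gene (chr11:80012654-80012703, minus strand), scored 4.1 and 4.2 over the same 50 bp. A B1_Mus1 element in intron 1 of 22 of Ncoa3, a nuclear receptor coactivator gene (chr2:166011213-166011266 in control, minus strand), scored 4.5 over 54 bp and 2.5 over 53 bp. At each of the 3 loci the lower coordinate was the same base in both libraries. The share of reads that could align to more than 1 SINE copy is unknown for these loci, and its part in the scores was not tested.

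The members of highest score were mostly B1 elements in introns. In control the first was a B1_Mur1 element in the only intron of C3ar1, the receptor for the complement fragment C3a (chr6:122855696-122855930, minus strand), with a score of 14.0 over 235 bp. After IL-4 its counterpart scored 7.7 over 381 bp. A B1_Mur3 element in intron 11 of 30 of Ap3d1, an adaptor complex subunit gene (chr10:80720271-80720518, minus strand), scored 10.1 and 8.2. A B1_Mus1 element in intron 2 of 16 of Pik3ap1, a PI 3-kinase adaptor gene (chr19:41365353-41365587, minus strand), scored 9.7 and 5.9, and another in intron 1 of 6 of Susd6 scored 9.5 and 3.8. Rreb1 carried an ID_B1 element of the B4 family in intron 1 of 9, with 7.9 and 4.0. These 5 were chosen as the highest control scores, which favours a lower score in the other library. SINE pairs with a control score of 1 or more had a median ratio of IL-4 to control of 0.60, against 1.00 for those at 0.2 or less, and the median over all pairs of transcripts was 0.8.

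The other families led with a B3 element in intron 1 of 5 of the phosphatase gene Ptp4a2 (7.9 in control, 4.5 after IL-4), an MIRb element in intron 2 of 8 of Sirpa, the inhibitory receptor for CD47 (3.4 over 1379 bp and 2.3 over 1334 bp), and an ID element in intron 1 of 9 of the TNF receptor gene Tnfrsf1b (5.3). The IL-4 transcript over the Tnfrsf1b element scored 2.6 and had its midpoint outside the repeat. After IL-4 the highest member was a B1_Mm element in intron 3 of 9 of Fam20c, a kinase gene of the secretory pathway (chr5:138767480-138767854, plus strand), with 9.8 against 7.1 in control. Csf1r, the M-CSF receptor gene that defines macrophages, led the B4 family with an ID_B1 element in intron 11 of 21, with 4.6 after IL-4 and 5.6 in control. A PB1D10 element in Neat1, the long non-coding RNA of paraspeckles, scored 9.1 after IL-4, where the control transcript scored 28.1 over 261 bp with its midpoint in a simple repeat. A B1_Mus1 element in intron 1 of 20 of Cmip scored 7.5 after IL-4, where the control transcript scored 15.4 over 158 bp with its midpoint outside any repeat. At Neat1 and Cmip the longer IL-4 transcript had its midpoint in the SINE and the shorter control transcript did not.

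The transcripts were called in each library on its own, so the next count was of members without any overlapping transcript on the same strand in the other library. There were 1757 such control members (45.7%, 44.2 to 47.3%) and 2813 IL-4 members (53.2%, 51.9 to 54.5%). Over all transcripts the shares were 37.4% and 48.1%. LINE transcripts were at 47.6% and 59.5%, LTR transcripts at 49.6% and 58.3%, and transcripts without a repeat at 41.1% and 52.5%. The share depended on the score. It was 64.5% and 69.2% among members scoring 0.2 or less, 30.3% and 25.9% from 0.3 to 0.9, and 3.73% and 2.94% at 1 or more. The higher share after IL-4 was thus seen in the faintest members, and with a lower limit of 0.3 on the score of all transcripts the direction turned (IL-4 minus control, -16.7 points). It turned as well with the 21561 transcripts of highest score in each library (-4.68 points). By family the shares were 40.8% and 49.1% for B1, 53.5% and 59.3% for B4, and 50.2% and 58.9% for B2. The highest-scoring members without a counterpart, named after their values were seen, were a B1_Mur1 element in intron 12 of 18 of Tnip1 in control, with 1.8, and after IL-4 an ID4 element in intron 3 of 29 of the mannose receptor gene Mrc1 and a B1_Mm element in Gm14005, with 1.2 each.

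Scores were compared in transcripts that were each other's largest overlap in the 2 libraries. Of 26395 such pairs, 1243 had a SINE on both sides. Their scores correlated across loci (Pearson r = 0.765 on the log2 scale and Spearman rho = 0.701, n = 1243), a description over loci of the same 2 libraries. The IL-4 score was lower than the control score in 706 pairs, the same in 278 and higher in 259. After centring, the median log2 ratio of SINE pairs was -0.09 (quartiles -0.68 and 0.32), beside 0.00 for all pairs, -0.09 for LINE pairs and 0.00 for pairs without a repeat. The printed decimals make the ratios coarse, and 301 of the SINE pairs had scores of 0.2 or less on both sides. A pair was counted as higher or lower at a centred ratio of at least 2-fold. There were 115 higher pairs (9.25%, where all pairs gave 10.3%) and 145 lower pairs (11.7%, where all pairs gave 11.5%). Without centring the SINE pairs were 99 higher and 379 lower. Of the lower pairs 31 sat exactly at the limit, 26 of them with scores of 0.5 and 0.2. When the whole range allowed by rounding had to pass, 47 SINE pairs were higher (3.78%, all pairs 3.86%) and 44 lower (3.54%, all pairs 3.21%). These shares are near those of all pairs. By family, B1 had 61 higher and 83 lower of 711 pairs, B2 21 and 24 of 192, and B4 17 and 22 of 173.

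**Figure D4:**
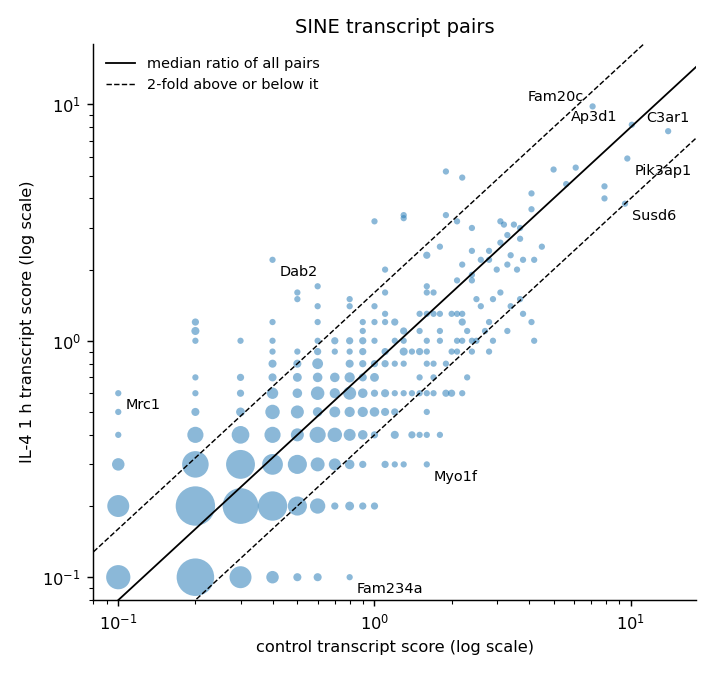
Scores of 1243 SINE pairs in control (x axis) and IL-4 (y axis), both on log scales, with the area of a point growing with the number of pairs at those printed scores. The solid line is the median ratio of all pairs (0.8) and the dashed lines are 2-fold from it, and Dab2 and Mrc1 lie above the upper line while Fam234a and Myo1f lie below the lower line.

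A pair counted only when both midpoints fell in a SINE, and this often failed. Of 2066 control members in any reciprocal pair 1243 (60.2%) had a SINE partner, 575 (27.8%) a partner without a repeat and 187 (9.05%) a simple repeat. Of 2460 IL-4 members the same 1243 (50.5%) had a SINE partner, 759 (30.9%) a partner without a repeat and 366 (14.9%) a simple repeat. Both kinds of partner were thus more numerous on the IL-4 side. The SINE pairs shared their subfamily in 1053 cases (84.7%), and their median length ratio was 1.15.

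The 10 largest increases among SINE pairs lay in 9 genes or next to them. The mannose receptor gene Mrc1, a marker of alternatively activated macrophages, held a B1F2 element in intron 2 of 29 (chr2:14239789-14240046 in control, plus strand) with scores of 0.1 and 0.6. The log2 ratio, centred, came to 2.91, and rounding allowed 2.20 to 4.02. Dab2, an adaptor of clathrin-mediated endocytosis, held a B1_Mur4 element in intron 10 of 13 (chr15:6433202-6433313 in control, plus strand) with 0.4 and 2.2 (2.78, 2.58 to 3.01). The clathrin heavy chain gene Cltc (B1_Mus1, intron 1 of 31) and Ehd4, a gene of endocytic recycling (B1_Mus1, intron 3 of 5), each went from 0.2 to 1.1 (2.78, 2.39 to 3.26). The sorting nexin gene Snx5 (B1_Mm, intron 2 of 13) and the kinase gene Bmp2k (intron 1 of 15) each went from 0.2 to 1.2 (2.91, 2.52 to 3.38). The same scores, 0.2 and 1.1, were found at an intergenic ID_B1 element whose nearest gene in the annotation was the kinase gene Pim1. The splicing factor gene Hnrnpll held 2 B3 elements in intron 8 of 12, with 0.2 and 1.0 and with 0.1 and 0.4. In the ubiquitin ligase gene Cbl a B1_Mur2 element of intron 1 of 15 had 0.1 and 0.5. The IL-4 transcript was the longer one in each of these pairs, from 382 and 415 bp in Cbl to 332 and 1374 bp in Snx5.

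The other intronic pairs of these genes, those without a repeat, were read beside them. Their median centred log2 ratio was 2.38 in Mrc1 (6 pairs), 2.07 in Dab2 (8), 1.32 in Cltc (5), Ehd4 (8) and Cbl (5), 1.11 in Hnrnpll (2), 0.74 in Bmp2k (5) and 0.32 in Snx5 (3). Apart from Snx5, the repeat-free introns of these genes were higher than the median pair as well, though by less than the SINE pair chosen for its size. The 0.32 of Snx5 is the centred value of an unchanged printed score, and the upper quartile of all pairs was 0.32 too.

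Among the 10 largest decreases, Fam234a held a B1_Mus1 element in intron 5 of 11 (chr17:26216791-26216977 in control, minus strand) with scores of 0.8 and 0.1 (-2.68, -3.77 to -2.00). Dclre1c, the nuclease gene Artemis (B1_Mur1), Camk1d, a calmodulin-dependent kinase gene (B4A), and Hp1bp3, a heterochromatin protein gene (B1_Mur3), each had 0.6 and 0.1 (-2.26, -3.38 to -1.55). Myo1f, a myosin gene of leukocytes, held a PB1D9 element in intron 25 of 27 with 1.6 and 0.3 (-2.09, -2.40 to -1.83). The ceramide kinase gene Cerk (B3, intron 6 of 12) and an intergenic B1_Mus1 element nearest to Sepn1 each had 1.0 and 0.2 (-2.00, -2.49 to -1.60). Pdpk1, Gabpb2 and the tankyrase gene Tnks each had 0.5 and 0.1. The IL-4 transcript was longer than the control transcript in some of these pairs, as in Fam234a (187 and 426 bp) and Dclre1c (381 and 971 bp). It was shorter in others, as in Camk1d (523 and 234 bp), and of the same length in Hp1bp3 (235 bp). The repeat-free intronic pairs had medians of -1.09 in Cerk (11 pairs), -0.68 in Myo1f (7) and Dclre1c (3), -0.26 in Camk1d (5) and 0.11 in Hp1bp3 (4).

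Over the 305 genes that had a SINE pair and at least 3 repeat-free intronic pairs, the 2 medians were related (Pearson r = 0.539, Spearman rho = 0.482, 551 SINE pairs). The points share both libraries, their rounding and, within a gene, the host transcription unit, and the values are a description only.

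Host genes were counted next. A GENCODE gene on the strand of an intronic SINE transcript was found 2687 times over both libraries, 1819 times in control and 2078 times after IL-4, with 1210 genes in both. More SINE transcripts after IL-4 were found in 1353 genes, fewer in 870, and equal numbers in 464, with 1.38 times as many SINE transcripts in the IL-4 library. In the same genes the repeat-free intronic transcripts were more in 1144, fewer in 829 and equal in 714. A single SINE transcript over both libraries was all that 1164 of the genes had. The gene with the most was Fchsd2, an endocytic adaptor gene, with 2 in control and 35 after IL-4. Its repeat-free intronic transcripts numbered 2 and 69. Snx29, a sorting nexin gene, had 5 and 28 (repeat-free 34 and 121), and Dennd1a, a gene of endosomal traffic, had 10 and 21 (43 and 98). In Cbl there were 12 and 18 (9 and 21), in Ncoa3 6 and 20 (18 and 31) and in Lrmda 14 and 21 (148 and 172). Numbers were close in Eif4g3, a translation initiation factor gene (14 and 15, repeat-free 36 and 19), in Cmip (13 and 11, repeat-free 56 and 53) and in the RNA-binding protein gene Rbm47 (12 and 12, repeat-free 42 and 38). Fnip2, a folliculin-interacting protein gene, had fewer after IL-4, 15 and 8, with 44 and 41 repeat-free transcripts. In Fchsd2, Snx29 and Ncoa3, which had the largest gains of the 10, repeat-free transcripts were more numerous after IL-4 as well.

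Some genes outside that ranking, chosen after their values were seen, had numbers further apart. Ern1, the sensor kinase of the unfolded protein response, had 0 SINE transcripts in control and 16 after IL-4 (repeat-free 3 and 32), and Zfp609 had 0 and 14 (2 and 32). Cux1, a homeobox gene, had 1 and 20 (16 and 47). In the other direction Osbpl8, an oxysterol-binding protein gene, had 13 and 4 (50 and 15), Man1c1 had 12 and 3 (54 and 26), and Pitpnc1 had 10 and 2 (15 and 7). Over the 1075 genes with at least 10 SINE and repeat-free transcripts, the log2 ratios of the 2 numbers (each plus 1) were related (Pearson r = 0.468, Spearman rho = 0.401), again as a description over genes of the same libraries.

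**Figure D5:**
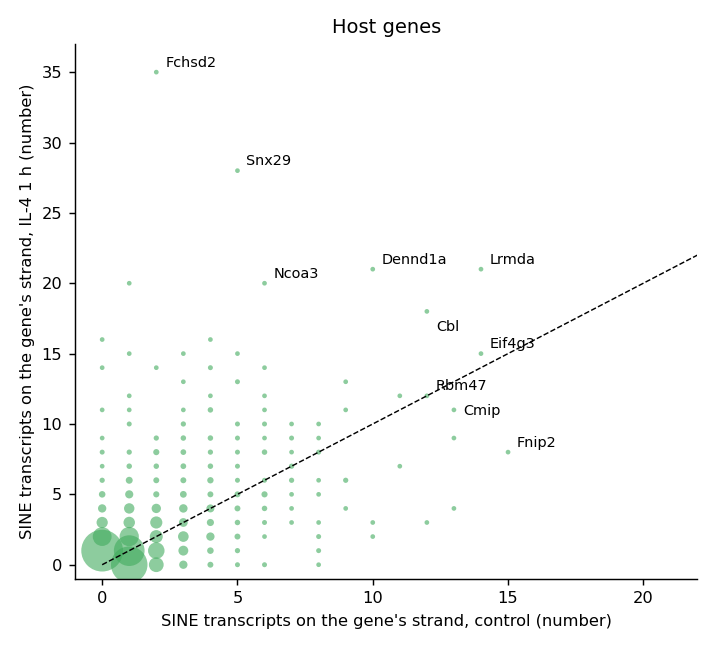
Number of SINE transcripts on the strand of each host gene in control (x axis) and IL-4 (y axis), with the area of a point growing with the number of genes there and the dashed line marking equal numbers. Fchsd2 (2 and 35) and Snx29 (5 and 28) lie far above the line, and the 10 genes with the most SINE transcripts are named.

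Genes with known roles in the response were read from lists. Of 20 early IL-4 responders, 7 held a SINE transcript on their strand, 5 in control and 7 after IL-4, and 5 of the 7 had more after IL-4 while none had fewer. Over all host genes 50.4% had more and 32.4% fewer. Mrc1 had 3 and 8, with a highest score of 0.2 and 1.2. Pparg, the lipid-sensing nuclear receptor gene, had 1 and 2. Its B1_Mur1 element was in both libraries, with 0.2 and 0.1. Its B1_Mur4 element (chr6:115408065-115408382, plus strand) scored 2.1 after IL-4, where the control transcript scored 2.8 with its midpoint in a simple repeat, so the added SINE name was no added transcript. Il4ra, the receptor chain for IL-4, had 1 and 3 (highest score 0.2 and 0.9, at different elements). A control transcript without a repeat, with a score of 0.2, overlapped the Il4ra element that scored 0.9. The control element of Il4ra lay within an IL-4 transcript without a repeat that scored 0.4. Cish, a feedback inhibitor of cytokine signaling, and Stat6, the transcription factor that IL-4 activates, had 0 and 1 each. The Stat6 element scored 0.1 after IL-4 over 192 bp, and a control transcript without a repeat that overlapped it scored 0.7 over 39 bp. The kinase gene Jak1 had 2 and 2, with a pair at 0.4 and 0.2, a pair at 0.3 and 0.2, and 11 and 5 repeat-free transcripts. Tfec had 1 and 1, both at 0.2 but at different elements, and 1 and 11 repeat-free transcripts. An IL-4 transcript without a repeat, with a score of 1.0, overlapped the control element of Tfec. Repeat-free transcripts numbered 8 and 58 in Mrc1, 7 and 16 in Il4ra, 4 and 9 in Pparg, 0 and 2 in Cish, and 5 and 5 in Stat6. Of the 10 genes that the study names as lower after IL-4, 3 held a member. Abca1, the cholesterol exporter, had 3 and 1, with a highest score of 0.4 and 0.2 at different elements and with 27 and 3 repeat-free intronic transcripts. A control transcript with its midpoint in a simple repeat and a score of 0.9 overlapped the Abca1 element that scored 0.2 after IL-4. Nlrp3, the inflammasome sensor, had 1 and 1, with scores of 0.1 and 0.3 at different elements and with 2 and 2 repeat-free transcripts. A control transcript without a repeat, with a score of 0.4, overlapped the element that scored 0.3 after IL-4. Lyz2, a macrophage lysozyme gene, had 1 (score 2.4) and 0, but an IL-4 transcript overlapped that element with a score of 1.8 and its midpoint outside any repeat. The study chose this list for lower expression after IL-4 in such macrophages, so its direction is not independent evidence. None of the 3 genes that it names as higher held a member. Of 29 genes for the RNA polymerase III machinery and SINE RNA partners 2 did, the subunit gene Polr3b (1 and 0, score 0.2) and Bdp1, a part of its initiation factor (0 and 1, score 0.5). SINE pairs also carried the names of the listed genes Polr3k (B1, 1.1 in control and 0.9 after IL-4) and Ezh2 (B1, 0.3 and 0.2). Neither gene was counted as holding an intronic member on its strand. Such numbers are too small to compare the libraries gene by gene.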

How the data were processed

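Both libraries were grouped by their treatment label. Per the submitters' processing notes and the study's methods, the authors aligned reads with BWA 0.7.10 to mm10, used SAMtools 0.1.19, removed ENCODE blacklisted regions, and called and annotated transcripts in each library with HOMER 4.2, the class and repeat being those at the midpoint. BWA at its defaults places a read with several equal matches at random, which bears on repeats. The deposited measurement is a score per transcript, given by the authors to 1 decimal, with a scaling that is not given in the sources used here. Depth is unknown.

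From these files, same-strand overlaps (at least 1 bp), reciprocal best pairs, log2 score ratios centred on the median pair (-0.32, a ratio of 0.8; 3 pairs with an IL-4 score listed at 0 left out), shares with 95% Wilson intervals and differences with Newcombe intervals were computed (Python 3.11.15, numpy 2.4.6, pandas 2.3.3, scipy 1.17.1), after a check on simulated data. With 1 library per group no test of IL-4 was made. Host genes and sequences came from GENCODE M21 (GRCm38, the same build), because no genome sequence was used here. Some sequences that the selection gave are not reported here. A rounding range takes each score as exact to 0.05. Named items were, by rule, the 5 members of highest score per library and the highest of each family, the 10 largest increases and decreases among pairs that are 2-fold over the rounding range with a score of at least 0.3, the 10 genes with most intronic members, and listed genes holding members. Members and lists were chosen with earlier results of these data known. Alternatives were score and length limits, equal numbers, other overlaps, other centring and other denominators.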

Additional observations from a re-analysis of the deposited data

How the results depend on the processing

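Of 41 values under alternative settings for 8 results, 23 stayed within the interval of the reported value, or within 1.5 times a count, 16 moved beyond it and 2 reversed, counting as reversed a sign turned where the interval had not included 0. The share of SINE transcripts without a counterpart, IL-4 minus control (7.48 points), was -16.7 points with a score limit of 0.3 in both libraries and -4.68 points with the same number of top-scoring transcripts in each library, 21.2 points with transcripts of at least 200 bp and 19.9 points with an overlap of at least 50%. The SINE share, IL-4 minus control (1.38 points), was higher after IL-4 in every alternative, at 1.87 points with the score limit, 1.88 points over intron and intergenic transcripts, and 0.91 points as a share of base pairs. The B1 share of SINE transcripts (1.13 points) was 3.51 points with the score limit and its sign turned to -0.74 points with transcripts of at least 200 bp and -2.23 points as a share of base pairs, with 0 inside the interval of the reported value. The median log2 ratio of SINE pairs was -0.42 without centring. Higher SINE pairs (115) numbered 345 when either side was a SINE, 38 with a score of at least 0.3 on both sides and 47 over the rounding range. Lower pairs (145) numbered 379 without centring, 452, 41 and 44 in the same 3 settings, and 234 with score times length. Fewer or more pairs entered by construction in the settings on either side, score and rounding. Without centring, every log2 ratio moved by the centre of -0.32, also by construction. The cause of the other moves was not tested. The intron share and the host-strand share moved in no alternative by more than their interval, though 3 of the 4 host-strand alternatives had intervals that include 0, and the intron share with transcripts of at least 200 bp was 1.67 points with an interval that does not (0.22 to 3.19). No paired analysis was possible because each group is 1 library. Leaving out a replicate was not possible for the same reason. Unknown depth limits every statement on scores.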
